A study of Ovis aries with 15 samples.

Results

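Small nuclear, small nucleolar and RNA polymerase III RNA genes were followed in ChIP-seq of sheep perirenal fat, by the name each gene carries in the promoter tables. A gene was taken as a member when its name starts with 5S_rRNA, Y_RNA, 7SK, SNOR or SCARNA, or is U followed by a number, such as U1 or U6. By this rule 1331 of the 18460 genes in any of the 3 promoter tables were members, and they fall into 16 RNA classes. U6 was the most numerous with 569 copies, followed by 235 SNORA genes, 161 SNORD genes, 158 5S_rRNA copies, 56 7SK copies, 44 U1 copies, 25 U2 copies and 23 U4 copies. The other classes were 16 SCARNA genes, 12 U5 and 12 U3 copies, 11 Y_RNA copies, 4 U8 copies, 2 U11 and 2 U7 copies and 1 U12 copy.

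The study compared lambs with fetuses of wild type purebred merino sheep, a transition during which perirenal fat changes from brown to white adipose tissue. Lambs were sampled 80 days after birth per the series design, or at 89 ± 7 days per the growth protocol, and fetuses at 132 days of gestation, with term at 150 days. The labels state that animals received no treatment, although titles of lamb libraries alone carry the tag VEH, and they give no sex. H3K27ac and H3K27me3 were each measured in 2 lambs and 2 fetuses, and H3K4me3 in 3 lambs and the 2 fetuses, with separate animals as replicates. Whole tissue was used, so a change in the mix of cells cannot be told apart from a change within cells. Lambs 1 and 2 and both fetuses carry the same animal numbers in every mark, so the marks come from the same animals. Input DNA was pooled per stage and enters no value used here. The rule also takes small nucleolar RNA genes, so the set is wider than nuclear and polymerase III RNAs.

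U1, U2, U4, U5, U11 and U12 RNAs are transcribed by RNA polymerase II from short promoters of their own and, with U6, form the spliceosomes that remove introns. U6, 7SK, 5S rRNA and Y RNA are products of RNA polymerase III: 7SK RNA holds the elongation factor P-TEFb inactive, 5S rRNA is part of the large ribosomal subunit, and Y RNAs bind the Ro protein. SNORD and SNORA RNAs guide methylation and pseudouridylation of ribosomal RNA, SCARNA RNAs guide the same changes on snRNAs in Cajal bodies, and most of these guide RNAs are cut out of introns of host genes. H3K27ac and H3K4me3 are found at active promoters and H3K27me3 at genes silenced by Polycomb complexes. Mammalian genomes hold many near-identical or degenerate copies of U6, 7SK, 5S rRNA, Y RNA and the U snRNAs, most of which are thought not to be transcribed.

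Reads from such copies are not uniquely assigned. The labels and headers do not state how reads with several matches were placed, nor the width or strand of a promoter window. A value for a single copy may therefore hold reads of other copies, or lack its own, and sums over a class depend less on this. Windows may also reach past these short genes into the DNA around them. A value at a guide RNA gene inside a host gene therefore cannot be separated from the host's own promoter. Of the 1274 members whose names carry coordinates (build Oar_v3.1), 83 lay within 1 kb of another member, 49 of them SNORD genes, so that neighbouring values may share reads.

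Depth differed between marks and limits what each can show. Promoter values are a scaled signal in which 1 read is worth a fixed step per library, and these steps gave 5061861 to 6257855 promoter reads per H3K27ac library. The H3K4me3 promoter tables held 9988033, 2476065 and 2542840 reads in lambs 1, 2 and 3, against 11139936 and 17541582 reads in the fetuses. For H3K27me3 the range was 324662 to 430345 reads, and the median member rested on 39 to 40 reads in the lambs and 37 reads in each fetus. Adipocyte marker promoters, 6 of 8 measured in H3K27ac, had summed signals of 1542 to 1560 in lambs against 2260 to 2646 in fetuses. Lymphocyte markers, 5 of 9 measured in H3K27ac, summed to 890 to 1044 in lambs against 674 to 724 in fetuses, and no marker was at 0; the part of these shifts in the results below was not tested. Since groups of 2 or 3 against 2 libraries cannot give an exact permutation p under 0.2, changes were tested with limma across all promoters of a table and with edgeR across all regions.

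The members made up 6.08% of the H3K27ac table (804 of 13222 promoters), 5.24% of the H3K4me3 table (677 of 12922) and 7.61% of the H3K27me3 table (482 of 6334). Of all 1331, 71 stood in every table, 333 in the H3K27ac and H3K4me3 tables alone, and 254 in the H3K27me3 table alone. Classes differed in where they stood. SNORD genes were in the H3K4me3 table in 129 of 161 cases and in the H3K27me3 table in 20, whereas U6 copies were in the H3K27ac table in 297 of 569 cases, in the H3K4me3 table in 239 and in the H3K27me3 table in 265. Why a gene is missing from a table is not stated, so absence is not read as lack of the mark.

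Members stood on balance below the middle of each table. Their median percentile of mean level among all promoters of a table was 37.5 for H3K27ac, 23.0 for H3K4me3 and 34.8 for H3K27me3. In H3K27ac, 282 of 804 members were in the weakest 25% of the table and 137 in the strongest, and in H3K4me3 these counts were 363 and 120 of 677. The class with the highest median percentile among those with at least 10 members was U2 in H3K27ac, at 59.0, and SNORD in H3K4me3, at 66.9. U6 copies had median percentiles of 29.4, 15.7 and 35.3 in H3K27ac, H3K4me3 and H3K27me3.

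The authors' separate table of regions, with raw read counts, gave another measure of which copies carry a mark. Of members with coordinates in a promoter table, 153 of 750 (20.4%) overlapped an H3K27ac region by at least 1 base, 192 of 630 (30.5%) an H3K4me3 region and 99 of 481 (20.6%) an H3K27me3 region. These regions cover 5.85%, 4.39% and 8.62% of the assembled span. The members counted here were already in that mark's promoter table, so their shares are not those of all members. Of all 1212 members with coordinates outside X, 12.6%, 14.9% and 8.42% overlapped an H3K27ac, H3K4me3 and H3K27me3 region. Outside X these regions cover 6.12%, 4.03% and 5.12% of the span. In the H3K4me3 table, 20 of 30 U1 copies, 12 of 17 U2 copies and 7 of 8 U5 copies lay in an H3K4me3 region, against 34 of 239 U6 copies, 4 of 21 7SK copies and 14 of 61 5S_rRNA copies. In H3K27ac the same classes gave 12 of 32, 10 of 21 and 5 of 9, against 37 of 297, 4 of 29 and 18 of 83.

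**Figure D1:**
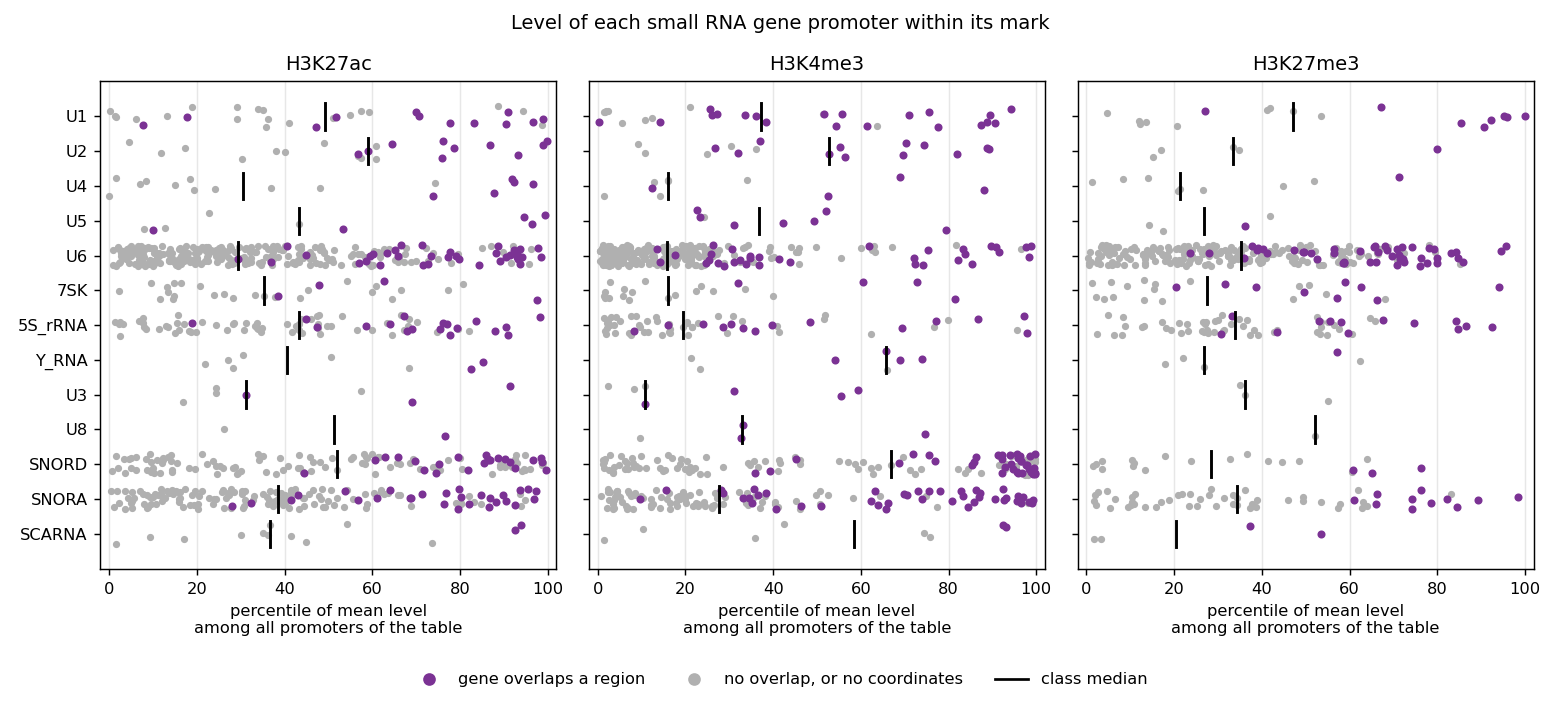
Each point is 1 small RNA gene promoter, placed by the percentile of its mean level (lamb and fetal means averaged) among all promoters of its mark's table, with 1 row per RNA class and a black bar at the class median; purple points overlap a region of that mark. U6 points crowd at low percentiles, with class medians of 29.4, 15.7 and 35.3, while purple points gather towards the right of each panel.

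H3K27ac at small RNA genes went both ways between stages, with losses at strongly marked copies and gains at weakly marked ones. At an adjusted p under 0.05 (limma, Benjamini-Hochberg over all promoters), 98 of 804 members were higher and 110 lower in lambs, or 12.2% and 13.7%, while 11.4% and 17.7% of all promoters were called in these directions. The median log2 change was 0.11 for members and 0.02 for all promoters. In the strongest 25% of the table, 70 of 137 members were lower (51.1%), and 46.2% of other promoters at that level were. In the weakest 25% 38 of 282 members were higher (13.5%), against 16.1% of the other promoters there.

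Spliceosomal snRNA genes transcribed by RNA polymerase II differed in how many of their copies lost H3K27ac in lambs. Of 32 U1 promoters 9 were lower (28.1%), of 21 U2 promoters 6 (28.6%), of 16 U4 promoters 2 (12.5%) and of 9 U5 promoters 4 (44.4%), against 17.7% of all promoters, so the U4 share was below that of the table. The U11 and U12 promoters were both lower. Among other promoters in the strongest 25% of the table, where 9 U1, 7 U2, 4 U4 and 3 U5 copies stood, 46.2% were lower. No U1 or U5 promoter was called higher by limma, while 3 U1 promoters and no U5 promoter were higher at an unadjusted p under 0.05, and 2 U2 and 1 U4 promoters were called higher.

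The U1 copy with the highest H3K27ac lies on chromosome 6 (90345863 to 90346027). It had 296 and 297 units of scaled signal in lambs and 615 and 732 in fetuses. The groups did not overlap, as in 66.4% of all H3K27ac promoters, and the log2 change was -1.17 ± 0.12 (SE; limma adjusted p = 1.24e-05). An H3K27ac region over this copy (90344251 to 90347200) held 18.6 and 18.5 CPM (region reads scaled to library size) in lambs against 37.8 and 39.6 in fetuses, a log2 change of -1.06 by edgeR.

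The strongest U2 copy stood at the 99.8 percentile of all H3K27ac promoters (chromosome 11, 42722557 to 42722748). It had 402 and 398 units in lambs and 816 and 796 in fetuses, without overlap, with a log2 change of -1.01 ± 0.11 (SE; limma adjusted p = 1.97e-05). It is 1 of 10 U2 copies within 93.1 kb, in which 5 copies were called lower and none higher by limma (1 higher at an unadjusted p under 0.05). Over all promoters 17.7% were called lower and 11.4% higher. Among the 10, 3 had log2 changes above 0, the largest being 0.38, and 7 overlapped an H3K27ac region. All 9 copies of this cluster in the H3K4me3 table overlapped an H3K4me3 region.

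U4, which pairs with U6 before the spliceosome is activated, had its 2 called losses at neighbouring copies on chromosome 17. The copy at 62257428 to 62257569 had 183 and 195 units in lambs and 403 and 489 in fetuses (log2 change -1.23 ± 0.13 SE, limma adjusted p = 1.48e-05). Its neighbour at 62258247 to 62258388 had 158 and 164 units in lambs and 306 and 396 in fetuses (log2 change -1.11). Since they lie within 1 kb of each other and share 1 region, they are not independent. By contrast, the U4 copy with the most H3K27ac (chromosome 3, 57538028 to 57538143) had 407 and 391 units in lambs and 419 and 410 in fetuses, a log2 change of -0.06 that was not called.

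All 9 U5 promoters had log2 changes below 0, with a class median of -0.55. U5 RNA aligns the exons at the splice junction. The copy at chromosome 1, 19266887 to 19267004, had 371 and 412 units in lambs and 629 and 640 in fetuses, with a log2 change of -0.70 ± 0.12 (SE; limma adjusted p = 0.000398). Summed over the 9 copies, H3K27ac was 1684 and 1834 in lambs against 2261 and 2742 in fetuses.

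U11 and U12 RNAs belong to the minor spliceosome, which removes a rare class of introns. The U11 promoter (chromosome 2, 237682711 to 237682844) had 223 and 265 units in lambs and 446 and 603 in fetuses, a log2 change of -1.09 ± 0.14 (SE). The U12 promoter (chromosome 3, 217499496 to 217499646) had 231 and 242 units in lambs against 359 and 419 in fetuses, a log2 change of -0.71 ± 0.13 (SE). Regions over both were also lower by edgeR, with log2 changes of -0.89 and -0.82. In H3K4me3 the same U11 promoter had 673, 671 and 525 units in lambs against 590 and 1991 in fetuses, so the groups overlapped and it was not called. U7 RNA, which takes part in cutting the ends of histone mRNAs, had 204 and 229 units of H3K27ac in lambs against 285 and 293 in fetuses at its copy on chromosome 20 (8886317 to 8886380), a called log2 change of -0.42.

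U3 and U8 RNAs take part in cleavage of the ribosomal RNA precursor. The U3 copy on chromosome 11 (9129251 to 9129465) had 210 and 203 units in lambs and 439 and 528 in fetuses, a log2 change of -1.22 ± 0.13 (SE; limma adjusted p = 1.24e-05). Of 7 U3 promoters 2 were lower in lambs, and both U8 promoters in the table were lower. The U8 copy on chromosome 11 (27380091 to 27380227) had 194 and 198 units in lambs against 308 and 359 in fetuses.

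Promoters of Y_RNA, 5S_rRNA, 7SK and U6, the classes made by RNA polymerase III, were called in both directions. Of 83 5S_rRNA promoters 23 were higher (27.7%) and 5 lower (6.02%) in lambs, of 29 7SK promoters 7 were higher (24.1%) and 4 lower (13.8%), and of 297 U6 promoters 44 were higher (14.8%) and 24 lower (8.08%). Over all promoters these shares were 11.4% higher and 17.7% lower, so the share of U6 gains was near that of the table. Class medians of the log2 change were 0.31 for 5S_rRNA, 0.35 for 7SK and 0.16 for U6. Summed over the class, 5S_rRNA H3K27ac was 16457 and 16274 in lambs against 13015 and 14886 in fetuses, without overlap. U6 summed to 50554 and 50212 in lambs against 44636 and 52941 in fetuses, so its stages overlapped.

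The largest called gain was at a Y_RNA copy on chromosome 4 (102167925 to 102168022), with 216 and 202 units in lambs and 74.1 and 103 in fetuses (log2 change 1.25 ± 0.20 SE, limma adjusted p = 0.000328). It overlapped no H3K27ac region and stood at the 28.2 percentile. The largest loss was at a 5S_rRNA copy on chromosome 9 (69173455 to 69173572), with 123 and 150 units in lambs and 309 and 474 in fetuses. Its log2 change was -1.49 ± 0.18 (SE), and the region over it was lower by edgeR as well, at 7.94 and 9.14 CPM in lambs against 17.5 and 23.2 in fetuses. The 7SK copy with the most H3K27ac (chromosome 20, 27583585 to 27583911) had 338 and 357 units in lambs and 462 and 546 in fetuses, a called log2 change of -0.53.

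Among guide RNA genes, 29 of 123 SNORD promoters were lower (23.6%) and 4 higher (3.25%) in H3K27ac. Of 161 SNORA promoters 18 were lower (11.2%) and 14 higher (8.70%), both below the 17.7% and 11.4% of all promoters. The strongest was SNORD83 on chromosome 20 (26886816 to 26886895), at the 99.6 percentile, with 373 and 384 units in lambs and 706 and 759 in fetuses. Its log2 change was -0.95 ± 0.12 (SE; limma adjusted p = 3.62e-05). SNORD45 copies on chromosome 1, at 51396705, 51397328 and 51398015, were all lower, with log2 changes of -0.70, -0.65 and -0.41. They lie within 1.38 kb, so their windows may share reads. SCARNA promoters had 1 called gain and no called loss by limma, and no loss at an unadjusted p under 0.05 either.

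**Figure D2:**
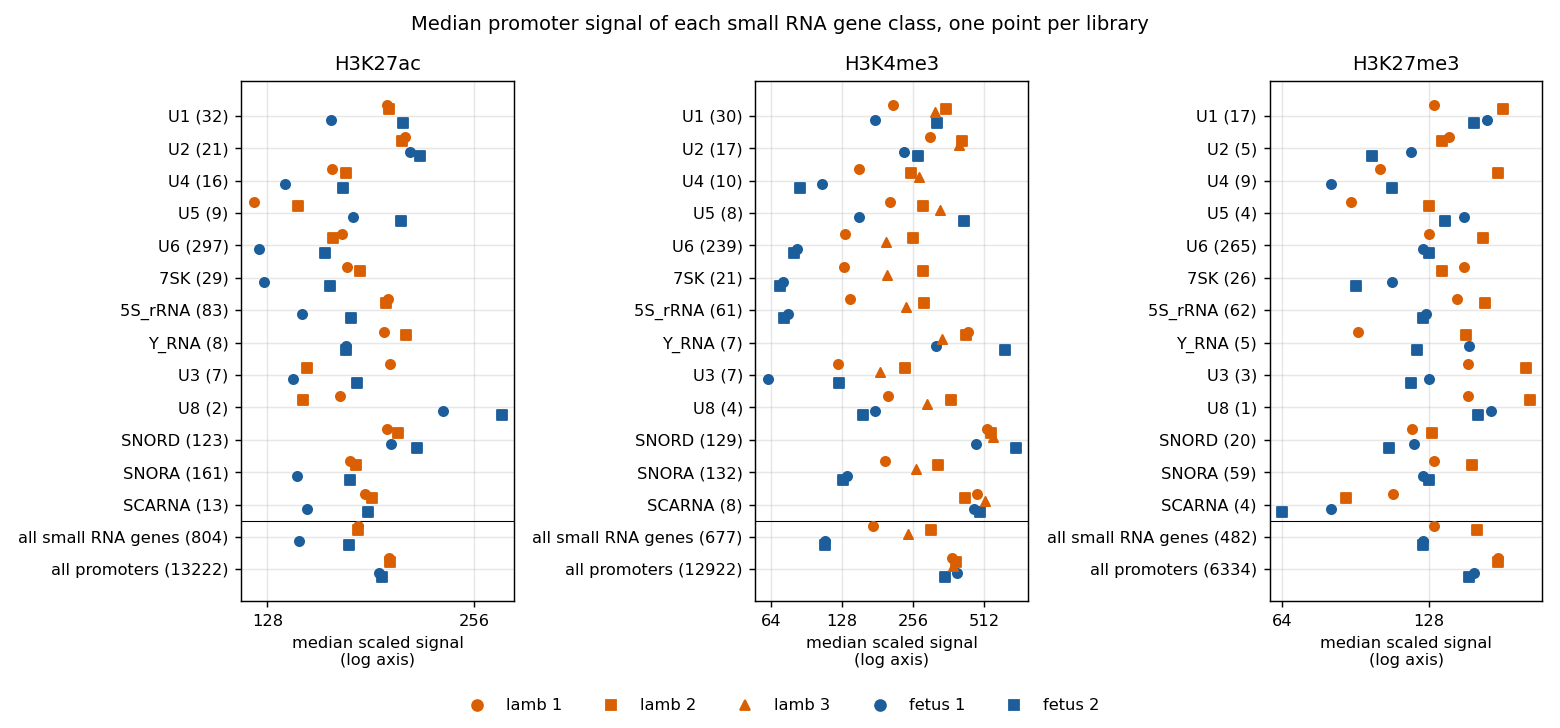
Median scaled promoter signal (log axis) of each class with more than 2 members in all, in rows with the number of promoters, for lambs (orange) and fetuses (blue), 1 point per library and 1 panel per mark. In H3K4me3 the median of all small RNA genes was 172, 304 and 243 in lambs against 108 in each fetus, while that of all promoters was alike in all 5 libraries.

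Class medians of H3K27ac differed more between the fetuses than between the lambs in the classes given here except Y_RNA and U3. Over all members the median was 173 and 174 units in lambs and 142 and 168 in fetuses. For U1 it was 191 and 192 in lambs and 159 and 202 in fetuses, for U2 203 and 201 against 207 and 213, and for U4 159 and 167 against 136 and 165. U5 had 122 and 142 in lambs against 171 and 200 in fetuses, and was below both fetuses in each lamb. U6 had 164 and 160 in lambs against 125 and 155 in fetuses, and 7SK had 167 and 175 against 126 and 158. The 5S_rRNA class had 192 and 191 in lambs against 144 and 169 in fetuses, Y_RNA 189 and 204 against 166 and 166, and U3 193 and 146 against 139 and 173. These medians of weakly marked classes were higher in both lambs than in both fetuses for U6, 7SK, 5S_rRNA and Y_RNA, and mixed for U3. SNORD had 191 and 198 in lambs against 194 and 212 in fetuses, SNORA 169 and 172 against 141 and 169, and SCARNA 177 and 182 against 146 and 179.

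In the region counts, 142 H3K27ac regions held a member, of which 34 were lower and 1 higher in lambs by edgeR (23.9% and 0.704%), against 9.44% and 4.48% of all regions. Their median log2 change was -0.17, beside 0.00 for all regions. They were also stronger than regions at large, and regions of like level were not compared. Outside X their median CPM was 12.1 and 12.4 in lambs and 15.2 and 14.3 in fetuses, against 7.37 to 7.58 for all regions. Of the 153 members with both values, 37 were called lower in both and none was called in opposite directions by limma and edgeR. The single higher region covered a 5S_rRNA copy on chromosome 8 (28202566), at 13.1 and 15.6 CPM in lambs against 8.56 and 9.82 in fetuses. By limma 17.7% of all promoters were lower, and 46.2% of the strongest promoters other than small RNA genes, as divided by level above. Promoter members inside an H3K27ac region had a median log2 change of -0.34, with 70 of 153 lower (median percentile of level 79.3). Those outside any region had 0.19, with 27 of 597 lower (median percentile 28.4). Without lamb 1 edgeR called 14 of these regions lower and none higher (2 higher at an unadjusted p under 0.05), without lamb 2 it called 20 and none (4 unadjusted), without fetus 1 it called 44 lower and 15 higher, and without fetus 2 it called 42 lower and 2 higher. DESeq2 called 30 lower and 1 higher.

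**Figure D3:**
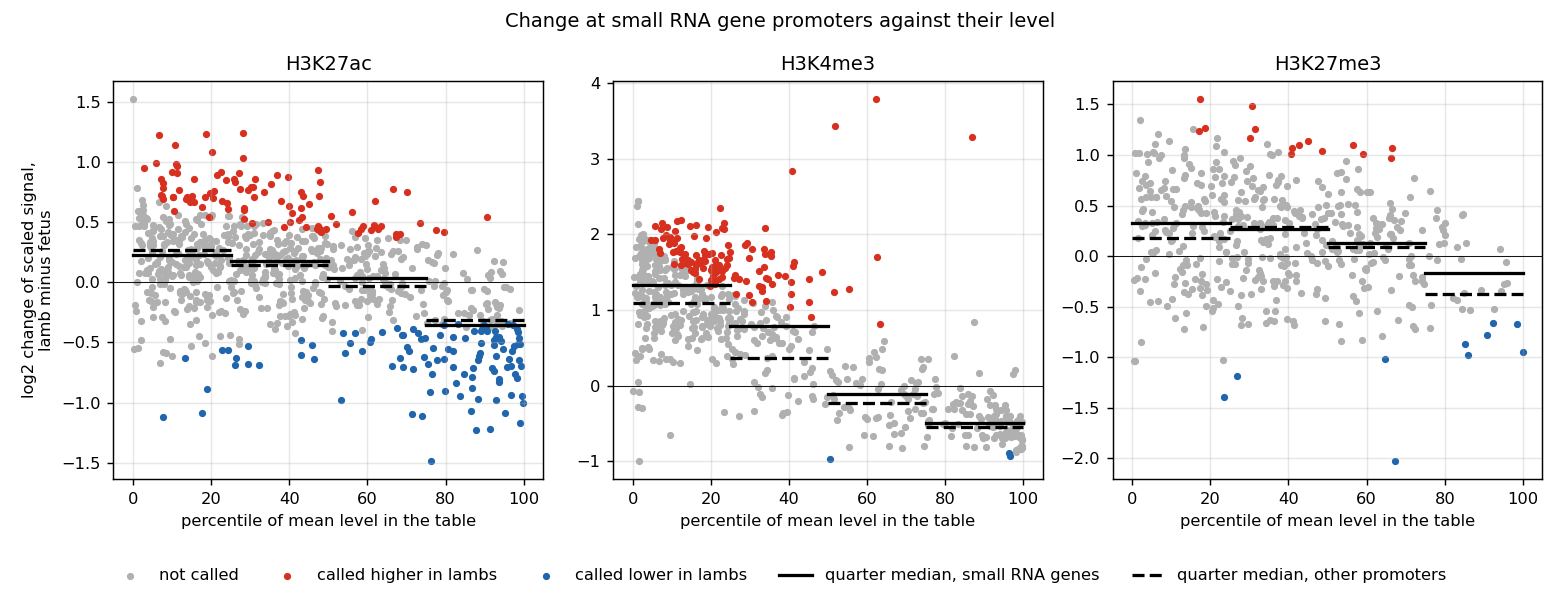
Log2 change of each small RNA gene promoter, lamb minus fetus, against the percentile of its mean level; red and blue points are called higher and lower in lambs, solid bars are the medians of small RNA genes in each 25% of level and dashed bars those of the other promoters. In H3K27ac both bars fall below 0 in the strongest 25%, at -0.36 and -0.32, and in H3K4me3 they stand above 1 in the weakest, at 1.33 and 1.09.

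These H3K27ac counts depend on scale and libraries. With the deposited scaling kept, which moved the median of all promoters to -0.30, 13 members were higher and 181 lower, and with column totals alone, at a median of 0.11, 146 were higher and 80 lower; relative to all promoters the members' median was 0.09 above in each. Left out in turn, lamb 1 gave 12 higher and 52 lower, lamb 2 gave 13 and 63, fetus 1 gave 135 and 186, and fetus 2 gave 265 and 100. Of 54 calls at genes picked by the naming rule, 33 held without lamb 1 and 35 without lamb 2.

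Copies of U1, U2, U3 and Y_RNA that lie together in the genome had higher median H3K27ac than other copies of the same RNA, and 3 grouped U6 copies had less, a grouping chosen after the values were seen and given without a test. Of 44 U1 copies, 20 lay in 5 groups of at least 3 copies spaced by at most 100 kb. In H3K27ac the grouped U1 copies had a median percentile of 70.3, against 35.3 for the others, with 6 of 14 and 3 of 18 called lower. Grouped U2 copies stood at 71.6, against 56.7 for the rest, with 5 of 10 and 1 of 11 called lower. Over all promoters 17.7% were called lower. Among promoters other than small RNA genes, as divided by level above, 46.2% of the strongest and 2.28% of the weakest were. Grouped and other copies of like level were not compared. The 4 grouped Y_RNA copies on chromosome 4 stood at 75.5, against 27.7 for the others. Grouped Y_RNA copies had a median log2 change of -0.50, and the 4 others in the table had 0.54.

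**Figure D4:**
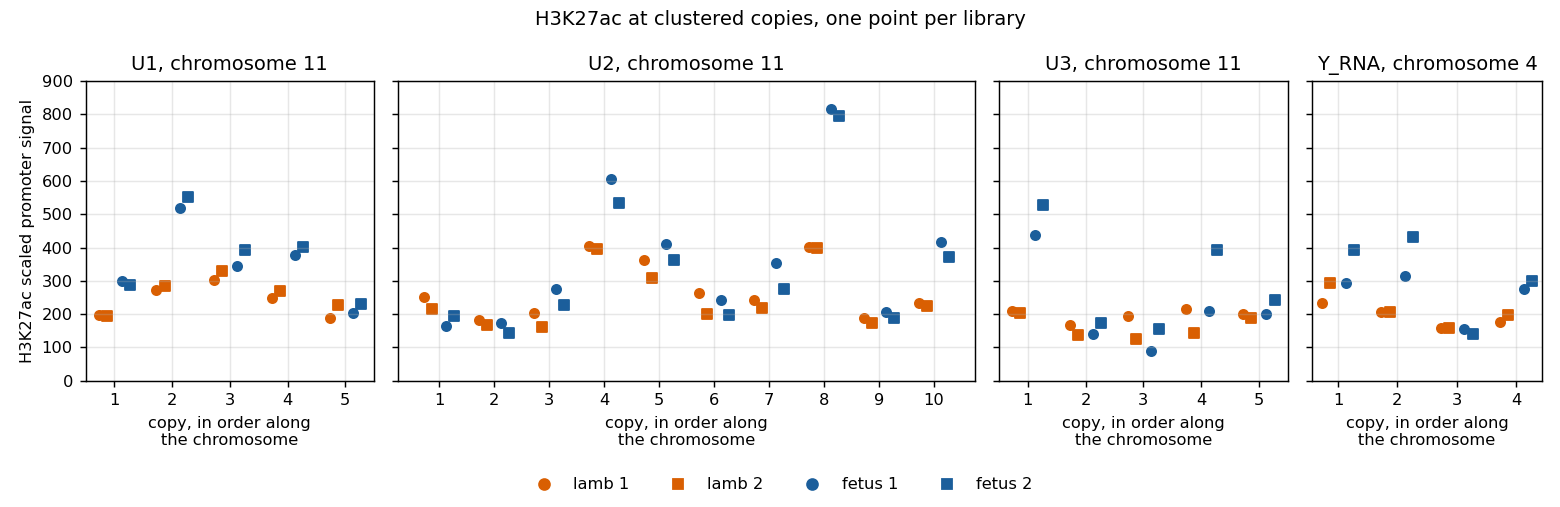
H3K27ac scaled promoter signal of each copy in 4 groups of neighbouring copies, numbered along the chromosome, for lambs (orange) and fetuses (blue), 1 point per library. Copy 8 of the U2 group stands at 402 and 398 in lambs against 816 and 796 in fetuses. Weaker copies vary: copy 3 of that group has means of 181 in lambs and 251 in fetuses, and copy 2 has 176 and 158.

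The U1 group on chromosome 11 spans 27.5 kb and had 3 of 5 copies lower in H3K27ac. These copies stood at percentiles 59.4 to 96.6. Over all promoters 17.7% were called lower. Among promoters other than small RNA genes, as divided by level above, 46.2% of the strongest and 16.3% at the next level below were. The copy at 9182705 had the largest change, -0.94, with a mean of 279 in lambs and 536 in fetuses. In the U3 group next to it, which spans 30.1 kb, log2 changes ran between -1.22 and 0.40, and 2 of 5 copies were lower.

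H3K4me3 at many weakly marked small RNA genes was higher in lambs, most in the shallow libraries of lambs 2 and 3. Of 677 members 132 were called higher and 3 lower (limma), or 19.5% and 0.443%, against 8.33% and 1.9% of all promoters. The median log2 change was 0.88, beside 0.00 for all promoters. By library, the members' median difference from the fetal mean was 0.42 in lamb 1, 1.26 in lamb 2 and 0.94 in lamb 3, so the deepest lamb library showed the smallest shift. All promoters in the weakest 25% of the table shifted by 0.59, 1.51 and 1.27 in the same lambs. At that level 88 of 363 members were higher (24.2%), against 16.6% of the other promoters, and in the next 25% 37 of 122 (30.3%) against 13.4%. Lymphocyte markers, 6 of 9 measured, had summed H3K4me3 of 1108 to 1777 in lambs against 491 to 795 in fetuses, and 3 were called higher. Macrophage markers, 3 of 6 measured, summed to 1417 to 1538 in lambs against 887 to 1271 in fetuses with 2 called higher, and adipocyte markers, 6 of 8 measured, to 2291 to 2618 in lambs against 3394 to 4546 in fetuses with 1 called lower. No marker of these lists was at 0, and their part in the result was not tested.

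Without lambs 2 and 3 together limma called no member, with 5 higher and 1 lower at an unadjusted p under 0.05, and the members' median change was 0.44. Without lamb 2 there were 6 gains, without lamb 3 there were 2, without lamb 1 there were 215 and without fetus 1 there were 217 gains and 102 losses. Leaving out fetus 2 gave 85 gains and 1 loss. With the deposited scaling, which put the median of all promoters at -1.28, 9 members were higher and 119 lower, while the members stayed 0.88 above that median. With the weakest 25% of promoters left out, the members' median was -0.11 beside -0.22 for all promoters.

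Among classes with at least 10 promoters, 5S_rRNA had the largest share of H3K4me3 gains, with 27 of 61 promoters higher (44.3%), against 8.33% higher and 1.9% lower of all promoters. Its class sum was 14226, 24226 and 23247 in lambs against 14110 and 9202 in fetuses, so lamb 1 was close to fetus 1 and the other lambs were higher. U6 had 54 of 239 promoters higher (22.6%) and 1 lower, 7SK 4 of 21 higher (19.0%), SNORA 20 of 132 higher (15.2%) and 1 lower, and SNORD 16 of 129 higher (12.4%) and 1 lower. Of 30 U1 promoters 2 were higher (6.67%) and of 17 U2 promoters 1 (5.88%), both below the share of all promoters. Of 10 U4 promoters 2 were higher and of 8 U5 promoters 1.

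Lambs 2 and 3 had their highest 5S_rRNA gains at 4 copies. The copy on chromosome 16 (20708738 to 20708866) had 260, 1808 and 2825 units in lambs and 137 and 91.0 in fetuses, a log2 change of 3.29 ± 0.43 (SE; limma adjusted p = 8.54e-06). Lamb 1 was above both fetuses but far below the other lambs.

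The copy on chromosome 25 (7475282 to 7475401) had 122, 1041 and 1737 units in lambs against 56.6 and 32.5 in fetuses, and a log2 change of 3.79 ± 0.53 (SE). The copies on chromosome 10 (83172790) and chromosome 3 (194802570) had log2 changes of 3.43 and 2.83 with the same order of libraries. The chromosome 16 and 25 copies were the only 2 of 18 named H3K4me3 calls that were kept without lamb 3. A region over the chromosome 16 copy held 6.15, 48.8 and 88.1 CPM in lambs against 3.22 and 1.63 in fetuses (log2 change 4.30, edgeR adjusted p = 0.0441), and it was the 1 called H3K4me3 region among members.

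The 3 called H3K4me3 losses were at SNORA53, at a U6 copy on chromosome 5 (62865667) and at SNORD59 on chromosome 3 (162720997). SNORA53 had 216, 270 and 280 units in lambs against 374 and 660 in fetuses, a log2 change of -0.97 ± 0.31 (SE). The U6 copy had 1075, 729 and 710 units in lambs against 1264 and 1960 in fetuses, and SNORD59 had 939, 731 and 829 in lambs against 1298 and 1830 in fetuses. With 1 library left out in turn, the U6 call held in 2 of 5 fits, without lamb 1 or fetus 1, and those of SNORA53 and SNORD59 in 1 of 5, without fetus 1. Without fetus 2 the log2 changes were -0.62 at the U6 copy, -0.56 at SNORA53 and -0.65 at SNORD59. Groups did not overlap at any of the 3, and 48.5% of all H3K4me3 promoters did not overlap between stages.

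The highest H3K4me3 of any member was at SNORD2 on chromosome 1 (198671750 to 198671819), at the 99.8 percentile, with 1784, 1103 and 1193 units in lambs against 1680 and 2872 in fetuses. Its log2 change of -0.72 was not called. Among classes with at least 10 promoters, SNORD had the highest medians, at 526, 548 and 556 units in lambs and 472 and 696 in fetuses, with 58 of 129 in the strongest 25%. Medians of U6 were 132, 256 and 196 in lambs against 82.4 and 80.0 in fetuses, those of 7SK 130, 280 and 198 against 71.7 and 69.5, and those of 5S_rRNA 138, 285 and 238 against 75.4 and 72.3. In these classes every lamb was above both fetuses and lamb 1 was the lowest lamb.

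U1 medians were 211, 352 and 315 in lambs against 177 and 322 in fetuses, U2 medians 302, 410 and 399 against 234 and 269, and U4 medians 151, 250 and 271 against 105 and 84.9. U5 had 204, 281 and 333 in lambs against 150 and 418 in fetuses, Y_RNA 434, 427 and 339 against 321 and 626, and U3 123, 237 and 184 against 62.0 and 124. U8 had 201, 368 and 292 in lambs against 177 and 157 in fetuses, SNORA 194, 327 and 264 against 134 and 129, and SCARNA 474, 425 and 515 against 462 and 490. For U1, U5, Y_RNA, U3 and SCARNA fetus 2 lay among or above the lambs.

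A run of SNORD116 and SNORD115 genes on chromosome 18 stood in the H3K4me3 table only. In humans these brain-expressed guide RNAs lie in an imprinted region. All 10 genes, within 127 kb, had log2 changes above 0, between 0.91 and 1.94, and 7 were called higher. Their mean signals ranged over 147 to 440 units in lambs and 55.3 to 235 in fetuses, and 3 overlapped an H3K4me3 region. The 10 genes stood at percentiles 6.59 to 45.2, where gains were common in other promoters too. Of all H3K4me3 promoters 8.33% were called higher. Among the weakest other promoters, as grouped by level above, 16.6% were called higher, with a median log2 change of 1.09. In the next group by level these values were 13.4% and 0.37. Whether the run gained more than promoters of like level was not tested. The strongest SNORD116 copy (1096431) stood at the 45.2 percentile, and without lamb 2 or lamb 3 at most 6 members of any class were called.

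Region counts gave another picture of H3K4me3. The 164 regions that held a member were stronger than regions at large. Outside X their median CPM was 25.9, 18.5 and 21.5 in lambs and 34.3 and 48.1 in fetuses. All regions there had medians of 5.23 to 6.25. In the strongest 25% of promoters, median log2 changes were -0.49 for members and -0.54 for others. The 164 regions had a median log2 change of -0.81, beside -0.04 for all regions, and regions of like level were not compared. By edgeR 1 was higher and none lower, with 3 and 87 at an unadjusted p under 0.05, while only 0.0529% and 0.0619% of all regions were called higher and lower; DESeq2 called 2 higher and 65 lower. Without lamb 1 edgeR called 1 higher and 36 lower, without fetus 1 it called 7 and 69, and without fetus 2 it called 7 and 3. Without lamb 2 it called none (3 higher and 20 lower at an unadjusted p under 0.05). Promoter members inside a region had a median log2 change of -0.21 and those outside had 1.23. Of 192 members with both values, 47 had a change above 0 at the promoter and below 0 in the region. The region and promoter tables were scaled separately.

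H3K27me3 at small RNA genes changed at few autosomal copies. Of 482 members 15 were called higher and 10 lower in lambs (limma), or 3.11% and 2.07%, against 4.42% and 8.83% of all promoters. The median log2 change was 0.22, beside 0.02 for all promoters, and lamb 2 carried most of it, with a median difference from the fetal mean of 0.37, against 0.04 in lamb 1. Without lamb 2 limma called no member (43 higher and 42 lower at an unadjusted p under 0.05) and without lamb 1 it called 56 higher and 20 lower. Without fetus 1 or fetus 2 it called none higher and 2 lower each, with 25 and 18 higher at an unadjusted p under 0.05. Of 22 calls at genes picked by the naming rule none held without lamb 2 and 2 held without either fetus. Column totals gave 25 higher and 8 lower, and the deposited scaling 3 higher and 9 lower.

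The promoter with the most H3K27me3 in the whole table was a U1 copy on chromosome 1 (98639384 to 98639547). It had 1392 and 1966 units in lambs and 3428 and 2972 in fetuses, without overlap (59.8% of all H3K27me3 promoters did not overlap), and a log2 change of -0.95 ± 0.13 (SE; limma adjusted p = 0.000291). The region over it is 19900 bases wide (98627001 to 98646900) and held 423 and 556 CPM in lambs against 627 and 733 in fetuses. Its log2 change of -0.47 was not called by edgeR (adjusted p = 0.177), so the loss was called in the promoter table only.

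This copy is 1 of 4 U1 copies within 90.5 kb, all of which overlapped an H3K27me3 and an H3K4me3 region. A copy of the same group (98601690) had 301 and 350 units of H3K27me3 in lambs against 561 and 559 in fetuses, a called log2 change of -0.78, while the narrow region over it changed by 0.28 and was not called. In H3K4me3 all 4 copies had log2 changes above 0, of which 1 (98576157) was called at 1.57. Another group of 4 U1 copies lies at 96990738 to 97137691, with 3 copies in H3K27me3 regions and 1 called loss. Over all H3K27me3 promoters 8.83% were called lower. A further group at 98392924 to 98426068 had 1 copy in the H3K27me3 table, outside any region.

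The largest H3K27me3 loss among members was at a U1 copy on chromosome 20 (49642423 to 49642536). It had 75.3 and 98.9 units in lambs and 366 and 343 in fetuses, a log2 change of -2.03 ± 0.29 (SE; limma adjusted p = 0.000341). The region over it was lower as well, at 5.67 and 4.99 CPM in lambs against 15.3 and 14.9 in fetuses (log2 change -1.49, edgeR adjusted p = 0.000931). Of 17 U1 promoters 4 were lower, 3 of them in the chromosome 1 groups. Summed over the class, U1 H3K27me3 was 4560 and 5688 in lambs against 7898 and 6985 in fetuses.

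SNORA12 on chromosome 10 (19175553 to 19175701) had the most H3K27me3 of the guide RNA genes, with 488 and 672 units in lambs and 934 and 895 in fetuses, a called log2 change of -0.67. That call was lost in most fits with 1 library left out, with log2 changes between -0.90 and -0.45. The region over it changed by -0.44 and was not called by edgeR (adjusted p = 0.251). The same promoter had a called H3K4me3 gain, with a log2 change of 1.31. It was the 1 opposite call in these marks among the 174 members in both tables (0.575%), against 1.25% of other promoters. At 2 of the gains in H3K27me3 the promoter was higher in H3K4me3 too: 5S_rRNA on chromosome 3 (41982884 to 41982989), with log2 changes of 1.55 and 2.08, and 7SK on chromosome 9 (157272 to 157482), with 1.25 and 2.07. A U4 copy on chromosome 2 (227996792) was likewise higher in both, at 1.14 and 2.08. These 3 are 1.72% of the 174 members in both tables, against 0.717% of other promoters. Each of their H3K27me3 calls was lost in most fits with 1 library left out, with log2 changes between 0.72 and 2.06.

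The 5S_rRNA copy on chromosome 4 (114830403 to 114830488) had 193 and 185 units of H3K27me3 in lambs against 70.6 and 64.0 in fetuses, a log2 change of 1.48 ± 0.36 (SE). Its region was higher too, at 3.74 and 3.42 CPM in lambs against 0.993 and 0.865 in fetuses, which are shallow values. Class medians of H3K27me3 were 128 and 165 units for U6 in lambs against 124 and 128 in fetuses, 146 and 167 for 5S_rRNA against 126 and 125, and 151 and 136 for 7SK against 108 and 90.9. They were 131 and 181 for U1 in lambs against 168 and 158 in fetuses, 141 and 136 for U2 against 118 and 97.6, 102 and 177 for U4 against 80.7 and 108, and 88.4 and 128 for U5 against 151 and 138. SNORD had 118 and 130 in lambs against 119 and 106 in fetuses, SNORA 131 and 157 against 124 and 128, Y_RNA 91.7 and 153 against 155 and 121, U3 154 and 202 against 128 and 118, and SCARNA 108 and 86.6 against 80.7 and 64.0. Both lambs were above both fetuses for 5S_rRNA, 7SK, U2, SNORA, U3 and SCARNA, as they were over all members (131 and 161 in lambs against 124 and 125 in fetuses). For U5 both lambs were below, and U6, U1, U4, SNORD and Y_RNA overlapped.

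Of 154 H3K27me3 regions that held a member, 7 were higher and 20 lower by edgeR, beside 7.58% and 7.18% of all regions. On the X chromosome, small RNA genes lay in H3K27me3 regions and lost signal in lambs along with the rest of that chromosome. The H3K27me3 promoter table holds no member on X, but 53 of 62 X members (85.5%) overlapped an H3K27me3 region, against 8.42% of 1212 members with coordinates elsewhere. H3K27me3 regions cover 72.1% of X and 5.12% of the other chromosomes. The 53 X regions had medians of 17.2 and 24.3 CPM in lambs and 34.0 and 36.5 in fetuses. By edgeR 18 were lower (34.0%) and none higher (39 and 0 at an unadjusted p under 0.05; DESeq2 also 18 and 0), and 25.3% of all X regions were lower and 0.195% higher. Their median log2 change of -0.68 stood beside -0.71 for all X regions. Without lamb 2 edgeR called 48 lower, and without fetus 1 or fetus 2 none (7 and 4 lower at an unadjusted p under 0.05), with median changes of -1.14, -0.71 and -0.69. Since the labels give no sex, a difference in sex between the stages cannot be told apart from age on X.

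U6 copies held 31 of the 53 X regions and 13 of the 18 losses there. Elsewhere 101 regions held a member, and 7 were higher and 2 lower (DESeq2 1 and 2; 18 and 14 without lamb 2, 6 and 10 without lamb 1, none without either fetus, with 5 and 6 higher at an unadjusted p under 0.05), beside 9.7% higher and 1.98% lower among all regions outside X. Medians there were 4.94 and 5.26 CPM in lambs and 4.87 and 4.97 in fetuses. Among the losses outside X was the U1 copy on chromosome 20, and the other was a 7SK copy on chromosome 19 (13493108), at 2.41 and 2.23 CPM in lambs against 6.36 and 5.19 in fetuses.

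**Figure D5:**
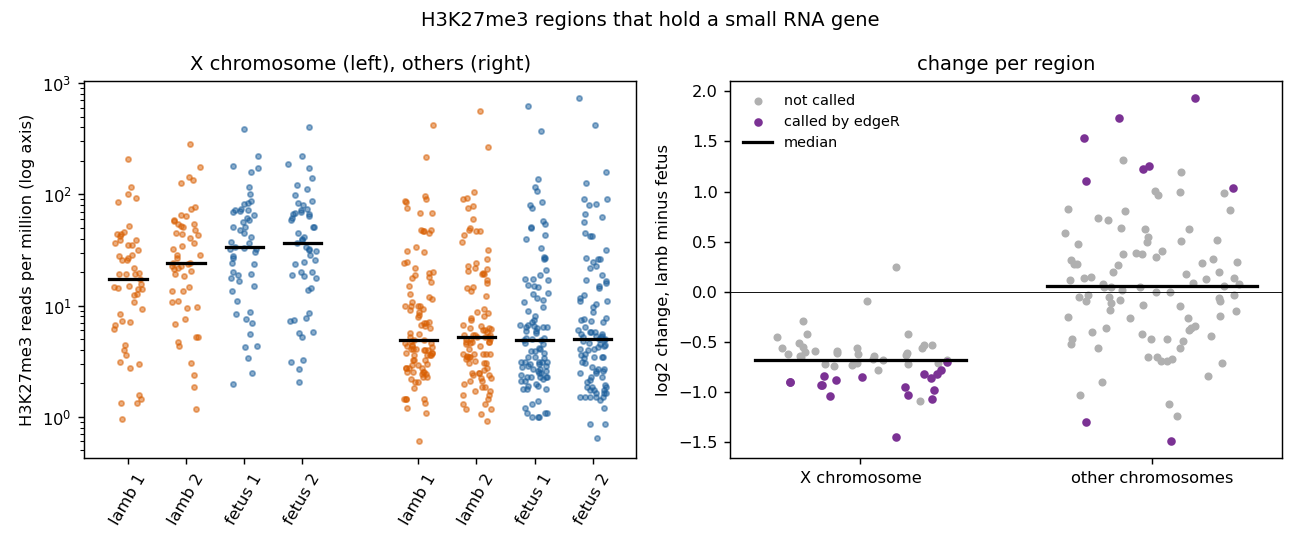
Left, H3K27me3 CPM (log axis) of every region that holds a small RNA gene, by library, with a bar at the median; right, log2 change per region, lamb minus fetus, with regions called by edgeR in purple. On X the medians are 17.2 and 24.3 in lambs against 34.0 and 36.5 in fetuses, and elsewhere all 4 libraries have medians between 4.87 and 5.26.

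Marks were compared at members in both tables of a pair. For the 404 members with H3K27ac and H3K4me3, the changes had a Spearman rho of 0.60, and 0.58 across 9705 other promoters. Genes are not independent replicates and each pair comes from the same animals, so these are descriptions. For H3K4me3 and H3K27me3 the rho was 0.46 across 174 members and 0.37 across other promoters, and for H3K27ac and H3K27me3 it was 0.16 across 125 members and -0.05 across other promoters. Calls in both H3K27ac and H3K4me3 were 11 higher in both, 1 lower in both (SNORD59) and 4 in opposite directions, or 2.72%, 0.248% and 0.990% of the 404. Of the 9705 other promoters 1.25% were higher in both, 1.94% lower in both and 0.124% opposite. The 4 opposite calls were SNORA70 on chromosome 1 and U6 copies on chromosomes 3, 7 and 13, all lower in H3K27ac and higher in H3K4me3.

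Genes whose products make, bind or process these RNAs were read from 7 lists of 111 genes, which were chosen with results of these data known. In H3K27ac 85 were measured, 25 were lower and 2 higher in lambs, or 29.4% and 2.35%, with a median log2 change of -0.13 beside 0.02 for all promoters. Of all promoters 17.7% were lower, and 46.2% of promoters other than small RNA genes in the strongest 25% were. Proteins of the spliceosomal snRNPs had 10 of 21 lower and 1 higher, among the losses PRPF8, the scaffold of the active site, with a mean of 278 ± 2.36 in lambs and 499 ± 28.1 in fetuses (SD, n = 2 each). Of 6 genes of the 7SK particle and P-TEFb 4 were lower, among them MEPCE, which caps 7SK RNA (138 ± 5.06 in lambs and 251 ± 14.6 in fetuses), and the cyclin genes CCNT1 and CCNT2.

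The Integrator complex, which cuts the ends of snRNA transcripts, had 5 of 13 genes lower, beside the 17.7% of all promoters, led by INTS6 with a log2 change of -1.19 ± 0.17 (SE). Of 12 genes for snoRNPs and Cajal bodies 4 were lower, among them NOP58 (log2 change -0.72) and COIL (-0.48). RNA polymerase III subunits had 1 gene higher, POLR3B at 0.58, and 2 lower of 14, POLR2K at -0.62 and CRCP at -0.47. Of 15 factors and regulators of these genes none was called by limma (1 higher and 2 lower at an unadjusted p under 0.05), and of 4 genes for La, Ro and 5S binding proteins none was, at an adjusted or an unadjusted p. In H3K4me3 1 of 80 measured genes was called, INTS4 at -0.87, with 2 higher and 20 lower at an unadjusted p under 0.05, and none of the lists' genes was in the H3K27me3 table.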

How the data were processed

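ChIP-seq of H3K27ac, H3K4me3 and H3K27me3 was analysed from deposited promoter and region tables. Reads were mapped to Oar 3.1 by CLC Genomics Workbench 7.0 per the series' labels. MACS, bedtools 2.19.0 and edgeR are named, with no role, per the submitters' processing notes. The region tables hold raw read counts per region, as deposited by the authors. The promoter tables hold a signal that the authors had already scaled per library: all values were whole multiples of 1 step per library, within 0.02 reads, which gave the promoter reads. The unit check did not accept these as recovered counts, so the planned edgeR and DESeq2 fits on promoters were not run. A blank row (1) of the H3K27me3 promoters was left out.

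Promoter signal was rescaled by column total and TMM factor, put on a log2(signal + 1) scale and tested with limma 3.58.1, lamb minus fetus, with Benjamini-Hochberg adjustment over the whole table and a threshold of 0.05. Fold changes of low promoters are understated on that scale. Region counts were tested with the quasi-likelihood test of edgeR 4.0.16 (R 4.3.3), with DESeq2 1.42.0 as an alternative; CPM values use TMM library sizes. Scripts were tested on simulated data. Percentiles rank the mean of the lamb and fetal means within a table. P-values refer to these animals only, and limma draws its estimate of spread in part from other promoters of the table. They therefore do not measure the spread between animals at a single promoter alone. In H3K27ac, CCNT2 had SDs of 2.13 in lambs and 1.31 in fetuses and an SE of 0.123. CCNT1 had SDs of 25.9 and 56.8 and an SE of 0.146.

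Named genes were those with adjusted p under 0.05, at most 12 per direction and mark by size of change, the strongest member of each class and mark, members in all 3 tables, members of classes with at most 2 members, members in a region, and at most 4 called genes per pathway list. Copies singled out within groups of neighbours were chosen after their values were seen. The members, gene lists and marker lists were chosen with earlier results of these data known. Other scalings, a pseudocount of 10, removal of the lowest 25% of promoters, each library left out, a replicate block and, added after seeing the data, genes extended by 1000 bases on each side were tried.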

Additional observations from a re-analysis of the deposited data

How the results depend on the processing

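Counts are given as higher and lower in lambs. H3K27ac promoters numbered 2314 higher with column totals, 167 and 4012 with the deposited scaling, and 958 higher without the lowest 25%; members numbered 13 and 181 (median -0.21) with the deposited scaling and 60 higher without the lowest 25%. H3K4me3 promoters numbered 55 and 5623 with the deposited scaling, 165 and 25 without the lowest 25%, and 0 and 0 without lambs 2 and 3; members numbered 9 and 119 (median -0.40), 23 and 0 (-0.11), and 0 and 0 (0.44) in those settings, by limma, with 72 and 30, and 5 and 1, at an unadjusted p under 0.05 in the last 2. H3K27me3 promoters numbered 435 and 368 with column totals and 134 higher with the deposited scaling, and members 25 and 3 higher. The cause was not tested. Pseudocount 10 gave 98 and 111, 133 and 3, and 15 and 10 members in H3K27ac, H3K4me3 and H3K27me3.

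Replicate numbers name different animals, and same-numbered deviations correlated at 0.277 in H3K27ac, -0.412 and -0.346 in H3K4me3 and 0.0988 in H3K27me3, so they do not pair samples. With a replicate block, promoters numbered 2343 and 2912, 3 and 0, and 506 and 746; members 153 and 140, 1 and 0 (66 and 1 unadjusted), and 30 and 16; H3K27ac regions with a member 10 and 49.

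Member regions with genes extended by 1000 bases, chosen after seeing the data, numbered 5 and 54 in H3K27ac, 2 and 0 in H3K4me3 and 16 and 24 in H3K27me3. DESeq2 gave 2 and 65 in H3K4me3 and 1 and 20 in H3K27me3, and edgeR without lambs 2 and 3 gave 0 and 0 in H3K4me3 (2 and 2 unadjusted).

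With 1 library left out, H3K27ac promoters ranged over 142 to 2839 and 1035 to 3014, members over 12 to 265 and 52 to 186 (median -0.0083 to 0.24), and member regions over 0 to 15 and 14 to 44. H3K4me3 promoters ranged over 8 to 2730 and 4 to 2950, members over 2 to 217 and 0 to 102 (median 0.68 to 1.15), and regions over 0 to 7 and 0 to 69. H3K27me3 promoters ranged over 0 to 520 and 0 to 885, members over 0 to 56 and 0 to 20 (median 0.040 to 0.36), and regions over 0 to 18 and 0 to 62. Where an arm was left with 1 library, that library was assumed to vary like the others.

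Directions of H3K4me3 change that turned were those of U7 (chromosome 20, 10192549 to 10192611) at -0.079 and U2 (chromosome 11, 42662403 to 42662594) at -0.014 with the deposited scaling, and of U6 (chromosome 11, 43972738 to 43972845) at 0.85 without fetus 2 and -0.91 without fetus 1. Depth limits H3K27me3 most, with a median of 37 to 40 reads per member, and H3K4me3 in lambs 2 and 3.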
